A study of Mus musculus with 12 samples.

Results

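The genes described here are 9 mouse genes that mark Wnt-driven pericentral liver: Glul, Slc1a2, Rhbg, Lgr5, Axin2, Tbx3, Rnf43, Znrf3 and Tcf7l2. They were taken by symbol from 55487 genes in the deposited tables. The 9 symbols gave 9 genes, and all 9 passed the filter on low counts, which left 15862 genes for testing. The livers of 12 male mice aged 16 to 18 months, in 4 groups of 3, were sequenced as bulk tissue. Fasted knockout and fed knockout mice were Foxo3 flox/flox and Alb-cre positive, and fasted control and fed control mice were Foxo3 floxed and Cre-negative. The albumin promoter drives Cre in hepatocytes and the labels call the knockout hepatocyte-specific, so other liver cells of these mice may keep the gene. The fast was overnight, and the labels give an ad libitum diet for all 4 groups. The comparisons ask how fasting, hepatocyte deletion of Foxo3 and their combination relate to the level of these genes.

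Hepatocytes around the central vein receive Wnt ligands and R-spondins made largely by endothelial cells of that vein. Frizzled and LRP receptors pass the signal to beta-catenin, which acts with TCF and LEF proteins on target genes such as Glul and Axin2. In the hepatocytes next to the vein this program includes the synthesis of glutamine from ammonium that the urea cycle upstream has not taken up.

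Before any member is considered, 3 facts about the libraries bear on the values. Totals ranged from 17520058 to 22414976 counts, and the 8 hepatocyte markers summed to 69000 to 118000 TPM, a unit scaled by gene length and library total, with 0 markers at 0, so the tissue matches its label. Foxo3 itself was not lower in the libraries labelled knockout: it averaged 51.2 ± 4 CPM (counts scaled by library total and TMM factors) in fasted knockout and 40.8 ± 3.2 CPM in fasted control livers, and 60.2 ± 1.8 CPM in fed knockout and 46.8 ± 3.2 CPM in fed control livers (SD, n = 3 each). Each knockout liver lay above each control liver, at 46.6 to 53.6 against 38.1 to 44.3 CPM in fasted livers. In fed livers the values were 58.8 to 62.2 against 44.5 to 50.4 CPM. Groups were separated in this direction for 6.82% of all tested genes in fasted and 6.3% in fed livers. The log2 difference of Foxo3 over both feeding states was 0.34 (SE 0.0658, adjusted p = 0.247, edgeR quasi-likelihood test). Since a gene-level count can include exons that Cre leaves in place, it does not check the deletion. Fed control replicate 3 stood apart in markers of other cells. Its summed levels were 305 TPM for the 11 stellate and fibroblast markers, 242 TPM for the 7 cholangiocyte markers, 51 TPM for the 8 T and NK cell markers and 16.6 TPM for the 6 proliferation markers. The other 11 libraries held 62.1 to 145, 30.1 to 78.5, 5.52 to 20.6 and 2.66 to 7.07 TPM in the same order. The cholangiocyte sum rested mainly on Spp1, at 133 CPM against 17.6 to 48.3 CPM in the other 11. Krt19, Epcam and Sox9 lay within the range of the other 11, and Krt7, Cftr and Tspan8 were highest there but at most 1.82 CPM. The 12 endothelial markers summed to 304 TPM in fed control replicate 3 and to 133 to 231 TPM in the other 11. B and plasma cell markers summed to 3930 TPM in fasted control replicate 3 and to 40.9 to 372 TPM in the other 11. The part of these libraries in the results below was not tested, and the calls that ended without fed control replicate 3 are named beside their results.

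None of the 9 genes passed an adjusted p of 0.05 in any of the 7 comparisons fitted with edgeR. Fasting against feeding called 0 of 9 in knockout livers, where 2.48% of all tested genes passed, 0 of 9 in control livers, where 4.14% passed, and 0 of 9 for the mean of both genotypes, where 9.07% passed. At an unadjusted p under 0.05 these counts were 2, 1 and 4 of 9, beside 14.6%, 19.4% and 23.6% of all genes. Knockout against control called 0 of 9 in fed livers, where 0% of genes passed, 0 of 9 in fasted livers (0.0315%) and 0 of 9 for the mean of both feeding states (0.0126%). The interaction of genotype and fasting also called 0 of 9 (0.0063% of genes). The unadjusted counts were 0, 1, 1 and 1 of 9 in the order of these last 4 comparisons, beside 6.12%, 9.01%, 7.91% and 7.19%. DESeq2 called 0 members in 6 of the comparisons and Lgr5 alone in the mean fasting comparison. The 2 fasting comparisons do not share libraries with each other, but each shares its libraries with the genotype comparisons, so these counts are not independent. In bulk tissue, fewer cells of a type and less RNA per cell cannot be told apart.

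**Figure D1:**
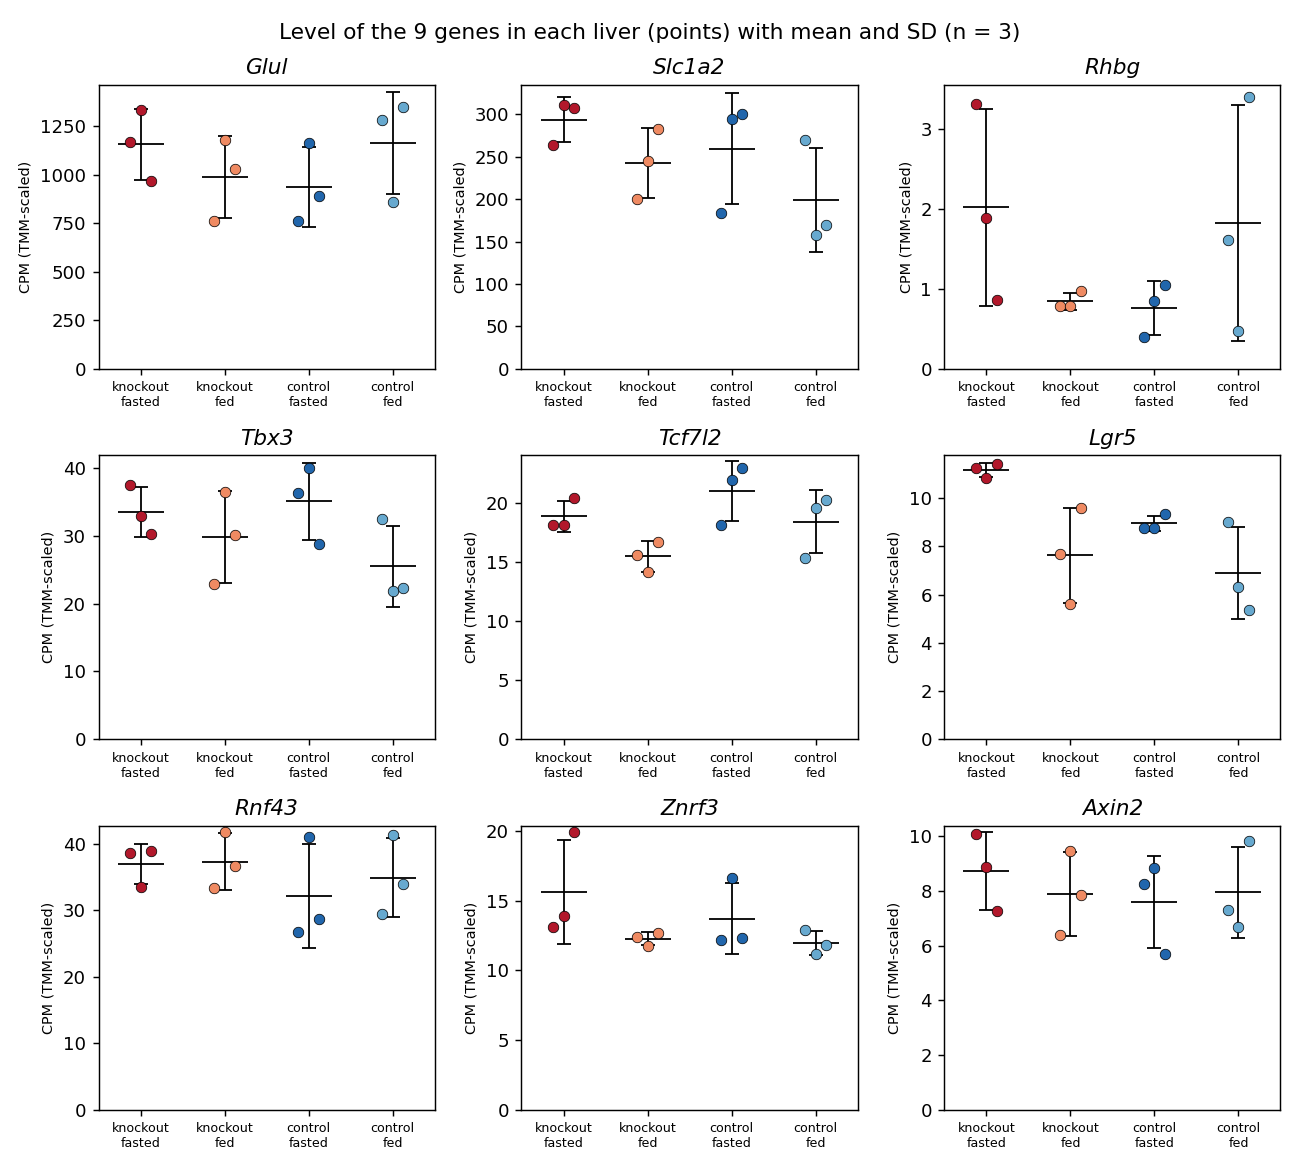
Level of each of the 9 genes in CPM (vertical axis, starting at 0, scaled by TMM factors) in the 4 groups (horizontal axis). Points are livers and the bars are the mean and SD of 3 livers. The 3 fasted knockout livers lie above the 3 fed knockout livers for Lgr5, Znrf3 and Tcf7l2, while the groups overlap for Glul and Rnf43.

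Levels between the 9 genes, compared per length, spanned a wide range, and their order was clear only at the top. Over the 12 livers, Glul averaged 696 TPM, Slc1a2 46.6, Rnf43 13.3, Tbx3 11.55, Tcf7l2 5.13, Znrf3 4.18, Axin2 3.63, Lgr5 2.08 and Rhbg 1.80 TPM. The ranges over livers of Glul (473.1 to 1028 TPM), Slc1a2 (27.9 to 58.5 TPM) and Rnf43 (10.5 to 15.95 TPM) did not overlap, and neither did those of Tbx3 (7.66 to 14.4 TPM) and Tcf7l2 (3.97 to 6.57 TPM). The neighbours Rnf43 and Tbx3 overlapped, as did each neighbouring pair from Tcf7l2 down to Rhbg. Rhbg, last by its mean, lay above both Lgr5 and Znrf3 in 2 livers, fasted knockout replicate 1 and fed control replicate 3.

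Glul encodes glutamine synthetase, which joins ammonium to glutamate and is confined in liver to the hepatocytes nearest the central vein. It lies on chromosome 1 at 153899944 to 153909723 on the plus strand (mm10). Glul stood at 1170, 1330 and 966 CPM in fasted knockout livers, against 760, 1176 and 1028 CPM in fed knockout livers. Fasted control livers had 759.5, 1162 and 888.1 CPM, against 1281, 861 and 1347 CPM in fed control livers. The groups overlapped in both genotypes, and the fold changes pointed opposite ways: log2 0.23 (SE 0.222, adjusted p = 0.716) in knockout and -0.31 (SE 0.222, adjusted p = 0.479) in control livers. The test of that difference, the interaction, gave 0.54 (SE 0.314, adjusted p = 0.77, edgeR), and 0.43 (adjusted p = 0.786) without fed control replicate 3, which had the highest Glul level. Counting error was at most 0.74% of the mean in any group, against a spread between replicates of 15.8% to 22.7%, so depth did not set the width of these intervals.

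The start of Glul is shared with another gene. Teddm2, annotated on the minus strand of chromosome 1 at 153849542 to 153900228, overlaps the first 285 bases of Glul. The RefSeq promoter window of Glul (GRCm38.p6, chr1:153899679-153899978, plus strand, 250 bases before to 50 after the RefSeq start) is shown because it reaches into that shared stretch. Capitals mark the 35 bases that fall within the deposited spans of both genes.
Glul: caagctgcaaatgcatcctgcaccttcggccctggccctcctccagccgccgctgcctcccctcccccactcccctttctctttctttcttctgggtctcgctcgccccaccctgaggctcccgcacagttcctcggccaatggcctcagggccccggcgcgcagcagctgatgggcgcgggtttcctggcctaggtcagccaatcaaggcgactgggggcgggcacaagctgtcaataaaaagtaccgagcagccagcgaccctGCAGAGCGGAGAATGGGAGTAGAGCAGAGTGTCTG
Teddm2 had the level pattern most like that of Glul among genes of at least 1 CPM without a provisional symbol, with Pearson r = 0.933 over the 12 libraries, and its count was a small share of the Glul count. In fasted knockout livers that share was 6.98%, 7.55% and 7.24%, against 6.45%, 6.75% and 7.16% in fed knockout livers. In controls it was 8.16%, 8.6% and 7.69% in fasted livers, against 8.09%, 7.08% and 7% in fed livers. The share ranged over 12 livers from 6.45% to 8.6%, while Glul itself ranged from 759.5 to 1347 CPM. The libraries were strand-specific, but how the counting treated strand is not given in the sources used here, so reads of the 2 genes in the shared stretch may not have been separated. The next genes in likeness to Glul were Olfm1 (r = 0.843) and Lect2 (r = 0.809), the hepatocyte-secreted factor that is also on the list of pericentral genes.

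**Figure D2:**
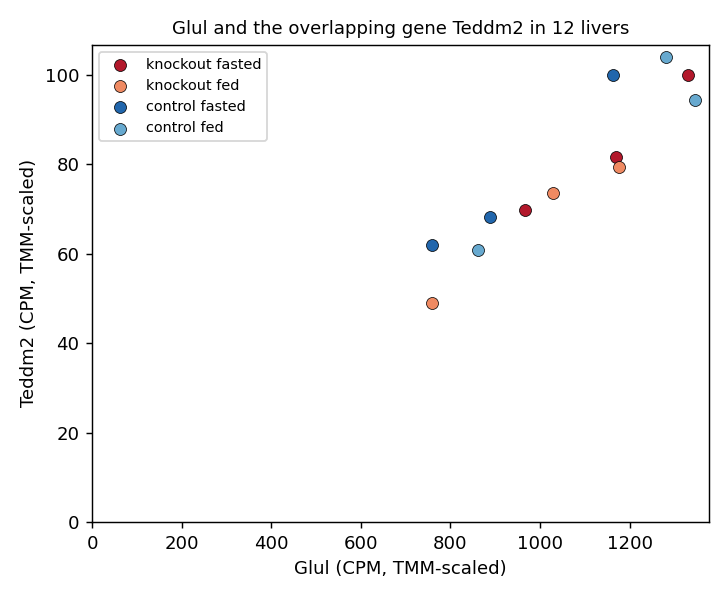
Level of Glul (horizontal axis) and of Teddm2 (vertical axis), both in CPM scaled by TMM factors, with a point for each of the 12 livers coloured by group. The points lie close to a line through the origin, with Teddm2 at 6.45% to 8.6% of the Glul count.

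Slc1a2, the glutamate transporter GLT-1, brings glutamate into the same pericentral hepatocytes. It stood at 263.9, 310.6 and 307.5 CPM in fasted knockout livers, against 200.3, 244.6 and 282.9 CPM in fed knockout livers. The control values were 183.9, 294.4 and 300.9 CPM in fasted livers, against 269.6, 158.1 and 170 CPM in fed livers. Means were higher after the fast in both genotypes, but the groups overlapped in both. The mean fasting difference was log2 0.33 (95% interval -0.02 to 0.68, adjusted p = 0.239), and knockout against control over both feeding states gave 0.23 (adjusted p = 0.726, edgeR). The window of Slc1a2 in the RefSeq table (GRCm38.p6, chr2:102706188-102706487, plus strand) starts from a site 47779 bases downstream of the deposited gene start. It is shown, with a window of Tcf7l2, because these 2 of the 7 windows found for 5 of the 9 members hold the letters of a TCF/LEF motif, in capitals. The motif searched on both strands was CTTTG followed by any 2 bases that are A or T, which 16.9% of 32851 windows of 300 bases hold. In Slc1a2 the match lies on the minus strand and begins 207 bases before that start site.
Slc1a2: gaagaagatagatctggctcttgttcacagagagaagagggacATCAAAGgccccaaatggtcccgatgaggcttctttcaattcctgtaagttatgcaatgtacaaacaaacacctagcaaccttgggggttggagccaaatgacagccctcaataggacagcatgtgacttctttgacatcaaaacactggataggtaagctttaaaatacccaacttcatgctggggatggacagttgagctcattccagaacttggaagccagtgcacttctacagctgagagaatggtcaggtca
The FoxO letters GTAAACA, present in 3.65% of all windows, were in 0 of the 7 windows. A letter match is a description of the sequence, not of a bound site.

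Rhbg encodes an ammonium transporter of the Rhesus family on the same hepatocytes, and it was the least abundant and most variable member. Its raw counts were 75, 42 and 15 in fasted knockout livers, against 15, 14 and 18 in fed knockout livers. In controls they were 8, 15 and 25 in fasted livers, against 34, 10 and 75 in fed livers. The highest values were those of fasted knockout replicate 1 at 3.32 CPM and fed control replicate 3 at 3.41 CPM, and the groups overlapped in each comparison. Fasted knockout replicate 2, at 1.89 CPM, also lay above all 3 fed knockout livers. The fasting differences were log2 1.26 (95% interval -0.12 to 2.65, adjusted p = 0.396) in knockout and -1.24 (95% interval -2.63 to 0.15, adjusted p = 0.311) in control livers. Their difference, 2.51 (SE 0.903), was the widest of the members and had an unadjusted p of 0.0165 but an adjusted p of 0.623 (edgeR). Without fed control replicate 3 the interaction was 1.70 (adjusted p = 0.678) and the control fasting difference was -0.43. Without fasted knockout replicate 1 the interaction was 1.96 (adjusted p = 0.934, edgeR) and the knockout fasting difference was 0.72. The pooled replicate spread of Rhbg was 0.87 on the log2 scale, against a median of 0.37 for the 3672 genes of 1 to 5 CPM.

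Lgr5, a receptor for R-spondins that amplifies Wnt signalling and marks pericentral hepatocytes in liver, came nearest to a fasting call. It stood at 11.2, 10.8 and 11.4 CPM in fasted knockout livers, against 7.68, 5.62 and 9.58 CPM in fed knockout livers. In controls it stood at 8.75, 8.77 and 9.32 CPM in fasted livers, against 9.02, 6.31 and 5.36 CPM in fed livers. All 3 fasted knockout livers lay above all 3 fed knockout livers and above all 3 fasted control livers, while fasted and fed controls overlapped. The groups were separated in this direction for 11.5% of all tested genes in the first of these comparisons and for 6.82% in the second. The mean fasting difference was log2 0.46 (SE 0.145, 95% interval 0.15 to 0.78, unadjusted p = 0.00733, adjusted p = 0.0673). This value lay on the edge of the threshold: the adjusted p was 0.0393 with DESeq2, 0.0437 with no filter on low counts, 0.0398 without fed knockout replicate 3 and 0.0205 without fed control replicate 1. The other 10 of the 12 fits without 1 library did not pass (0.0998 to 0.141, and 0.116 without fed control replicate 3), nor did the fit with RLE factors (0.0692). Within genotypes, the difference was 0.55 (adjusted p = 0.218) in knockout and 0.38 (adjusted p = 0.343) in control livers, or 0.22 without fed control replicate 3, and the interaction was 0.17 (95% interval -0.46 to 0.80, adjusted p = 0.946). Replicates of the 2 fasted groups spread by 2.64% and 3.65% of their means, less than the counting error of 6.6% and 7.4%, whereas fed knockout and fed control replicates spread by 26% and 27.6%.

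Axin2, Rnf43 and Znrf3 encode feedback inhibitors of the pathway: Axin2 is a scaffold of the complex that degrades beta-catenin, and Rnf43 and Znrf3 are ubiquitin ligases that remove frizzled receptors from the cell surface. Axin2, the most widely used readout of Wnt activity, stood at 10.1, 8.85 and 7.26 CPM in fasted knockout livers, against 6.38, 9.45 and 7.86 CPM in fed knockout livers. Fasted control livers had 8.255, 8.825 and 5.70 CPM, against 7.31, 6.69 and 9.81 CPM in fed control livers. The 4 groups overlapped, the mean fasting difference was log2 0.04 (95% interval -0.29 to 0.37, adjusted p = 0.904), and knockout against control over both feeding states gave 0.10 (95% interval -0.23 to 0.43, adjusted p = 0.892). Rnf43 stood at 38.5, 33.5 and 38.9 CPM in fasted knockout livers, against 33.3, 41.8 and 36.7 CPM in fed knockout livers. The control values were 26.7, 41.0 and 28.6 CPM in fasted livers, against 29.5, 41.3 and 33.9 CPM in fed livers. Its mean fasting difference was the only one besides that of Glul below 0, at -0.07 (95% interval -0.32 to 0.19, adjusted p = 0.777).

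Znrf3 had a mean fasting difference of the opposite sign to that of Rnf43, and neither passed. Znrf3 stood at 13.1, 13.9 and 19.9 CPM in fasted knockout livers, against 12.4, 11.75 and 12.7 CPM in fed knockout livers. In controls it stood at 12.2, 16.6 and 12.3 CPM in fasted livers, against 12.9, 11.2 and 11.8 CPM in fed livers. Fasted knockout livers lay above fed knockout livers with no overlap, with a single high value in fasted knockout replicate 3, and the controls overlapped. Its fasting difference was log2 0.34 (adjusted p = 0.37) in knockout livers and 0.27 (95% interval 0.02 to 0.53, adjusted p = 0.184) for the mean of both genotypes. The gap between the fasting differences of Znrf3 and Rnf43 was not tested.

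Tbx3 and Tcf7l2 encode transcription factors: Tbx3 is a T-box repressor that responds to Wnt signalling in liver, and Tcf7l2 is the main DNA-binding partner of beta-catenin in hepatocytes. Tbx3 stood at 37.6, 32.9 and 30.2 CPM in fasted knockout livers, against 22.9, 36.5 and 30.1 CPM in fed knockout livers. Fasted control livers had 36.4, 40.1 and 28.9 CPM, against 32.4, 21.9 and 22.3 CPM in fed control livers. The groups overlapped in both genotypes, and the fasting difference was log2 0.46 (unadjusted p = 0.0353, adjusted p = 0.217) in control and 0.17 (adjusted p = 0.758) in knockout livers. The antisense gene Tbx3os1 overlaps Tbx3 and held a mean of 167.2 counts, against 626.8 for Tbx3, so the Tbx3 value is uncertain where strands were not separated. Gm13872, antisense to Slc1a2, held 405.9 counts, against 5042.8 for Slc1a2.

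Tcf7l2 stood at 18.1, 18.1 and 20.4 CPM in fasted knockout livers, against 15.6, 14.1 and 16.7 CPM in fed knockout livers. The control values were 18.1, 21.95 and 22.9 CPM in fasted livers, against 15.3, 19.6 and 20.3 CPM in fed livers. Fasted knockout livers again lay above fed knockout livers with no overlap, as they did for 3 of the 9 members, Lgr5 and Znrf3 being the others. The fasting difference was log2 0.29 (unadjusted p = 0.0464, adjusted p = 0.33) in knockout livers and 0.24 (adjusted p = 0.13) for the mean of both genotypes. Tcf7l2 was the only member whose knockout-against-control difference over both feeding states was below 0, at -0.20 (95% interval -0.40 to -0.01, unadjusted p = 0.0444, adjusted p = 0.625, edgeR). The window of Tcf7l2 with TCF/LEF letters (GRCm38.p6, chr19:55895071-55895370, plus strand) belongs to a start site inside the gene, 153501 bases downstream of the deposited gene start, and the match begins 14 bases before that site.
Tcf7l2: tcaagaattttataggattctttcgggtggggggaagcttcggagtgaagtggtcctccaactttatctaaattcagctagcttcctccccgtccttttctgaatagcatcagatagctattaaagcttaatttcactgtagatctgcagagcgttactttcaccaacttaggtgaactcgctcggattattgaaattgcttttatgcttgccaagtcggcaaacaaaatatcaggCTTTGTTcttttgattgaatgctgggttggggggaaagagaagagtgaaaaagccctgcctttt
The other window of Tcf7l2, at the 5' end of the gene, held no match to the letters searched.

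**Figure D3:**
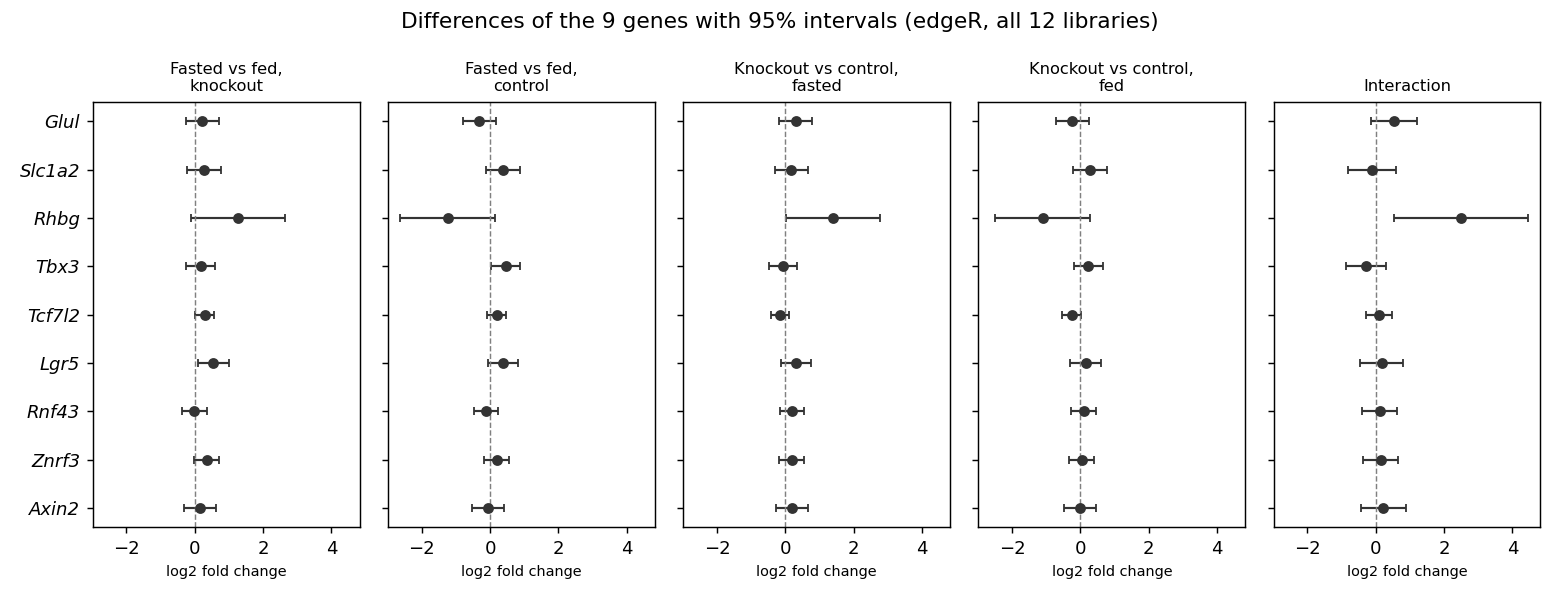
Log2 differences of the 9 genes (horizontal axes, the same scale in each panel) with 95% intervals from the edgeR fit of 12 libraries, for fasting in each genotype, for the 2 genotype comparisons, and for the interaction. Intervals are widest for Rhbg, whose fasting differences are 1.26 in knockout and -1.24 in control livers.

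Counting members whose groups did not overlap, fasting gave 3 higher and 0 lower in knockout livers, where 11.5% and 11.8% of all tested genes were separated that way, and 0 and 0 in control livers (11.5% and 10.9%). Knockout against control gave 0 and 0 in fed livers (6.3% and 5.99%) and 1 higher, Lgr5, and 0 lower in fasted livers (6.82% and 7.2%). Fasting differences were above 0 for 8 members in knockout livers and for 5 in control livers, with medians of log2 0.28 and 0.19, while 49.2% and 49.5% of all tested genes were above 0 and their medians were -0.01 and 0.00. Knockout against control was above 0 for 7 members in fasted and 5 in fed livers, beside 47.9% and 48% of all genes, and the members' medians were 0.205 and 0.038, against -0.01 for all genes in both comparisons. These are descriptions of 9 genes in the same livers, and no test of the set was made.

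All members but Tcf7l2 varied between livers of a group more than the typical gene of like level. The pooled replicate SD on the log2 scale was 0.31 for Glul, 0.32 for Slc1a2, 0.27 for Tbx3 and 0.23 for Rnf43, against a median of 0.15 for the 5748 genes over 20 CPM. Among the 4353 genes of 5 to 20 CPM, whose median was 0.19, Axin2 had 0.29, Lgr5 0.27, Znrf3 0.22 and Tcf7l2 0.16.

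To see whether members varied together between livers, deviations from the group means were correlated for the 36 pairs, with exact permutation within groups. The pair Glul and Rhbg had Pearson r = 0.675 (p = 0.0502, adjusted p = 0.635) and Spearman rho = 0.594 (p = 0.0849, adjusted p = 0.655), with r = 0.58 when the 2 livers farthest from the median of Glul were left out. Glul and Axin2 had r = 0.659 (exact permutation p = 0.0648, adjusted p = 0.635) and rho = 0.713 (p = 0.0494, adjusted p = 0.655), with r = 0.517 without 2 livers. Tbx3 and Tcf7l2 ran opposite, with r = -0.673 (exact permutation p = 0.0733, adjusted p = 0.635) and rho = -0.678 (p = 0.0648, adjusted p = 0.655), and r = -0.645 without 2 livers. By this permutation test 0 of 36 pairs passed after adjustment, also with RLE size factors. The same held without fed control replicate 3, but that refit cannot decide. It leaves too few within-group arrangements for a single pair to pass after adjustment over 36 pairs.

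**Figure D4:**
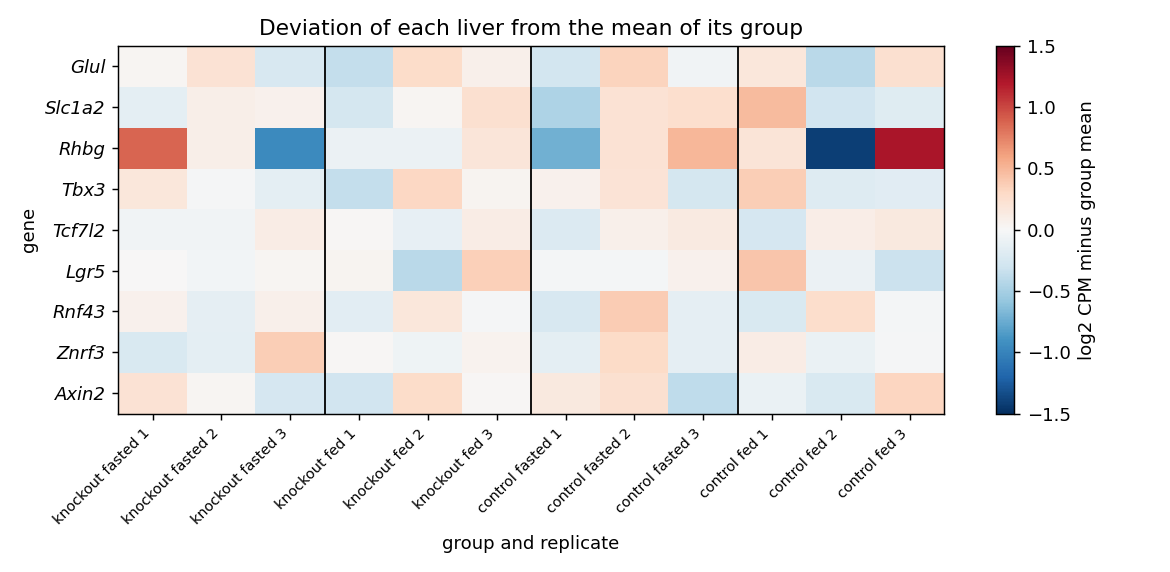
Deviation of each liver (columns, ordered by group and replicate) from the mean of its group for each gene (rows), in log2 CPM, where red is above the group mean and blue below. Rhbg spans -1.41 to 1.22, while the deviations of Lgr5 in fasted livers stay within -0.04 and 0.06.

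Outside the members, the genes whose levels over the 12 libraries were most like theirs are given as a description, since the libraries share depth and condition. Zfp410 (r = 0.894) was the most like Slc1a2, Snx19 (r = 0.9) the most like Rhbg, Marchf6 (r = 0.919) and Klf9 (r = 0.914) the most like Lgr5, and Lrp5 (r = 0.883), a Wnt co-receptor, the most like Axin2. Frg2f1 (r = 0.876) led for Tbx3, Nkrf (r = 0.896) for Rnf43, Psmd1 (r = 0.961) for Znrf3 and Zfyve27 (r = 0.942) for Tcf7l2.

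Of the other pericentral hepatocyte genes, 7 changed with fasting and 20 did not pass. On this list of 27, 7 rose and 0 fell for the mean of both genotypes by edgeR, beside 4.55% of all genes called higher and 4.52% called lower, and the list's median was log2 0.33 against -0.01 for all genes. At an unadjusted p under 0.05, 13 of 27 passed in that comparison, beside 23.6% of all genes, whereas 9 were higher and 3 lower by DESeq2. Nr1i3, the nuclear receptor CAR, stood at 466, 471 and 575 CPM in fasted knockout livers, against 138, 203 and 192 CPM in fed knockout livers. In controls it stood at 411, 795 and 583 CPM in fasted livers, against 341, 214 and 175 CPM in fed livers, so fasted and fed livers did not overlap in either genotype. Its mean difference was log2 1.40 (SE 0.195, adjusted p = 0.00116, edgeR). Cpox, an enzyme of heme synthesis, rose by 0.91 (adjusted p = 0.000437), Lhpp, a phosphatase, by 0.87 (adjusted p = 0.000551), and Oat, ornithine aminotransferase, by 0.996 (adjusted p = 0.00346). Aldh3a2, a fatty aldehyde dehydrogenase, rose by 0.72, Ahr, the aryl hydrocarbon receptor, by 0.68, and Cyp2e1, a cytochrome P450, by 0.65 (adjusted p = 0.0392). The Cyp2e1 call was lost in 9 of the 12 fits that each left out 1 library, where its adjusted p reached 0.0989, while the other 6 kept theirs in all 12. In knockout livers 4 of the 27 rose (Nr1i3, Cpox, Lhpp and Aldh3a2), beside 1.36% of all genes, and in control livers 5 (Nr1i3, Cpox, Lhpp, Oat and Ahr), beside 2.05%. Fitting only the compared groups ended the control calls of Nr1i3, Cpox, Lhpp and Oat (adjusted p of 0.0559 to 0.149, edgeR). With no filter on low counts, Nr1i3 lost its call in knockout (0.0513) and in control livers (0.0759). The counts within genotypes also rested on single libraries, ranging from 0 to 6 in knockout and from 1 to 5 in control livers when each was left out. Without fed knockout replicate 1 all 4 knockout calls were lost (adjusted p of 0.0505 to 0.0916), and 2 rose without fasted knockout replicate 3. In control livers 1 rose without fasted control replicate 2 or fed control replicate 2, 2 without fasted control replicate 3, and 3 without fed knockout replicate 2. Without fed control replicate 3 there were 6 in knockout livers, and in control livers 2 higher and 1 lower, the calls of Nr1i3, Oat and Ahr having ended, while the mean comparison gave 8 higher and 2 lower. Knockout against control and the interaction called 0 of 27 with edgeR. At an unadjusted p under 0.05, 4 of 27 passed in fed livers, 1 in fasted livers, 0 for the mean and 5 for the interaction. The shares of all genes in that order were 6.12%, 9.01%, 7.91% and 7.19%. DESeq2 called 1 lower in fed livers, 0 in fasted livers and for the mean, and 1 higher for the interaction.

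**Figure D5:**
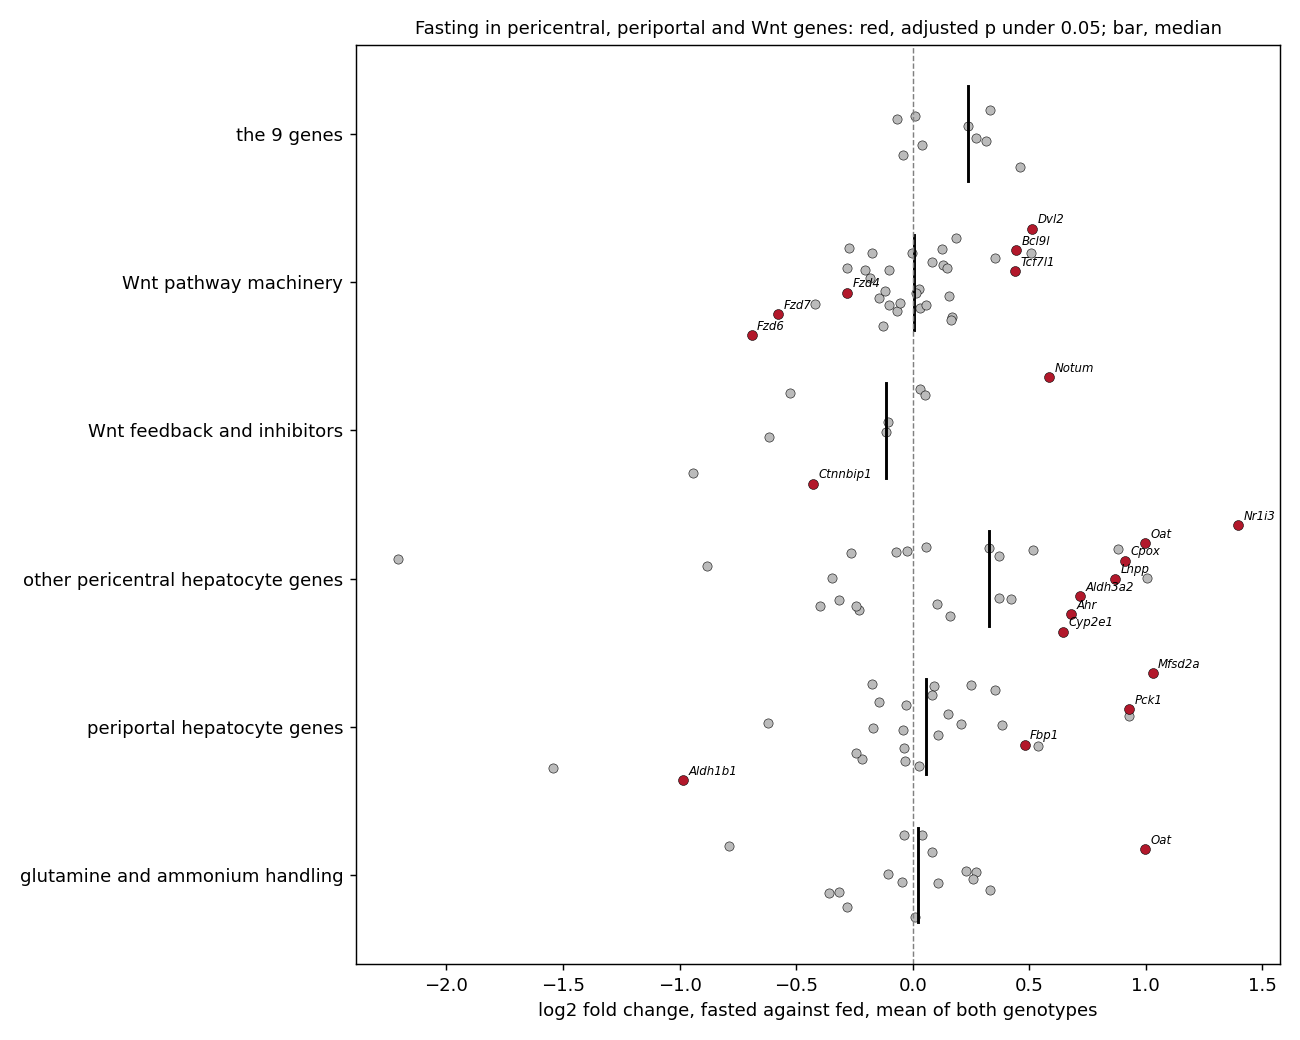
Log2 fold change of fasted against fed livers, mean of both genotypes (horizontal axis), for the 9 genes and 5 lists (rows). Red points have an adjusted p under 0.05, grey points do not, and black bars are medians. The 9 genes hold 0 red points, and the other pericentral genes hold 7, each to the right of 0.

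Among the pathway's own parts, 3 of the 6 frizzled receptors tested fell with fasting for the mean of both genotypes, and 3 cytoplasmic or nuclear factors rose. Wnt2 and Wnt9b, ligands of central vein endothelium, averaged 2.38 and 0.985 CPM in fasted and 1.73 and 1.15 CPM in fed livers, and Rspo3, an R-spondin from the same cells, 4.95 CPM in fasted and 4.94 CPM in fed livers. Their mean fasting differences were log2 0.51 (adjusted p = 0.358), -0.27 (adjusted p = 0.73) and 0.03 (adjusted p = 0.944). Rspo3 was highest in fed control replicate 3, at 7.85 CPM against 2.87 to 5.75 CPM in the other livers. The part of that liver in the Rspo3 difference was not tested. Of the 37 listed genes of the machinery 34 were tested, and for the mean of both genotypes 3 rose and 3 fell, with a median of 0.01. Of all tested genes, 4.55% were called higher and 4.52% lower in that comparison. The receptors Fzd7 (log2 -0.58, adjusted p = 0.00609), Fzd6 (-0.69, adjusted p = 0.0195) and Fzd4 (-0.28, adjusted p = 0.032) fell. The adaptor Dvl2 (0.51, adjusted p = 0.00407), the beta-catenin co-activator Bcl9l (0.44, adjusted p = 0.00158) and the repressor Tcf7l1 (0.44, adjusted p = 0.0121) rose. Leaving out single libraries ended the Fzd6 call in 2 of 12 fits and the Fzd4 call in 9 of 12.

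Fzd4 in particular stood at 63.6, 59.7 and 50 CPM in fasted knockout livers, against 51.5, 52.3 and 56.3 CPM in fed knockout livers, which overlap. Fasted control livers had 47.4, 48 and 44.7 CPM, against 82.7, 70.3 and 70.9 CPM in fed control livers, which do not overlap. It fell by 0.68 on the log2 scale in control livers (adjusted p = 0.00446), and the interaction was 0.79 (SE 0.148, unadjusted p = 0.000135, adjusted p = 0.201, edgeR), which did not pass. DESeq2 called 1 machinery gene higher for the interaction, where edgeR called 0. Of the 34 tested, 2 had an unadjusted edgeR p under 0.05, beside 7.19% of all genes. In knockout livers 1 machinery gene passed, Dvl2 (log2 0.55, adjusted p = 0.0449), beside 1.36% of all genes called higher. The Dvl2 call was lost in 10 of the 12 fits without 1 library (adjusted p up to 0.206). In control livers 2 rose (Bcl9l and Tcf7l1) and 2 fell (Fzd4 and Fzd7), beside 2.05% of all genes called higher and 2.09% called lower. Leaving out 1 library ended the Tcf7l1 call in 6 of 12 fits, among them that without fed control replicate 3 (adjusted p = 0.0888), and the Fzd7 call in 3 of 12. The control calls of Bcl9l and Fzd4 held in all 12 fits.

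Among 17 listed feedback genes and secreted inhibitors, of which 9 were tested, Notum rose and Ctnnbip1 fell for the mean of both genotypes. The shares of all tested genes called there were 4.55% higher and 4.52% lower. Notum, a secreted lipase that inactivates Wnt ligands, stood at 26.5, 28.6 and 30.2 CPM in fasted knockout livers, against 19, 23.3 and 22.8 CPM in fed knockout livers. The control values were 34.8, 40.6 and 43.6 CPM in fasted livers, against 25.5, 23.7 and 19.9 CPM in fed livers. Fasted livers lay above fed livers in both genotypes, and the mean difference was log2 0.59 (SE 0.0858, adjusted p = 0.00116, edgeR), a call kept in each of the 12 fits without 1 library. In fasted livers Notum was lower in all 3 knockout than in all 3 control livers (log2 -0.48, unadjusted p = 0.00151, adjusted p = 0.413), which did not pass. Ctnnbip1, an inhibitor of the beta-catenin and TCF interaction, had a difference of -0.43 (adjusted p = 0.0414), lost in 9 of the 12 fits. In control livers Notum rose and the receptor Tnfrsf19 fell (log2 -1.09, adjusted p = 0.025), beside 2.05% of all genes called higher and 2.09% called lower. The Tnfrsf19 call was lost in 4 of the 12 fits, including that without fed control replicate 3 (0.069). In knockout livers 0 of 9 passed with edgeR or DESeq2, 3 having an unadjusted p under 0.05, beside 14.6% of all genes.

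For comparison with the other end of the lobule, 3 of 26 periportal genes rose and 1 fell for the mean of both genotypes, with a median of log2 0.055. In that comparison 4.55% of all tested genes were called higher and 4.52% lower. Pck1 and Fbp1, enzymes of gluconeogenesis, rose by 0.93 and 0.48, and Mfsd2a, a lipid transporter, by 1.03, whereas Aldh1b1 fell by 0.98, a call lost in 7 of the 12 fits without 1 library, that without fed control replicate 3 among them. In control livers 5 periportal genes rose (Pck1, Tat, Fbp1, Asl and Mfsd2a), beside 2.05% of all genes called higher. Fitting only the compared groups ended the calls of Tat, Fbp1, Asl and Mfsd2a (adjusted p of 0.0701 to 0.14, edgeR), and no filter ended that of Mfsd2a (0.121). Leaving out 1 library gave 1 to 5: only Pck1 was left without fasted control replicate 3, 2 were called without fasted control replicate 2 or fed control replicate 1, and 3 without fed control replicate 2 or without fed control replicate 3, which ended the Asl and Mfsd2a calls. The Mfsd2a call was lost in 10 of 12 fits. In knockout livers 0 of 26 were called by edgeR, while DESeq2 called 2 higher and 2 lower. By edgeR 10 of the 26 had an unadjusted p under 0.05, beside 14.6% of all genes. The interaction called 0 of 26 with edgeR and 1 with DESeq2. By edgeR 6 of the 26 had an unadjusted p under 0.05, beside 7.19% of all genes, and Tat (-1.45, adjusted p = 0.201) had the smallest p. The periportal list's median fasting difference was log2 -0.172 in knockout livers, with 7 of 26 genes above 0. In control livers it was 0.315, with 18 of 26 above 0. Of all tested genes, 49.2% and 49.5% were above 0 in these comparisons. The list's median for the interaction was -0.539, and no test of the list was made. Of 18 listed genes that handle glutamine and ammonium, 16 were tested. For the mean of both genotypes Oat alone passed, beside 9.07% of all genes. Knockout against control called 0 genes of the machinery, feedback, periportal or glutamine lists in either feeding state or their mean with edgeR. At an unadjusted p under 0.05 the counts in that order were 4, 0, 4 and 1 in fed livers, 3, 3, 4 and 0 in fasted livers, and 4, 1, 2 and 2 for the mean. These are counts out of 34, 9, 26 and 16 tested genes. The shares of all genes were 6.12% in fed livers, 9.01% in fasted livers and 7.91% for the mean. DESeq2 called 1, 0, 1 and 1 in fed livers and 0 in the other comparisons of genotype. The smallest p among them in fed livers were those of Tat (log2 1.12, unadjusted p = 5.29e-05, adjusted p = 0.168), Fzd4 (-0.48, adjusted p = 0.636) and Slc38a2, a glutamine transporter (0.93, adjusted p = 0.636). Sox9, a cholangiocyte marker, fell in fasted against fed knockout livers (log2 -1.20, adjusted p = 0.0377, lost in 6 of the 12 fits without 1 library), and its part in the results was not tested.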

How the data were processed

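Poly(A) RNA from frozen liver was made into strand-specific libraries, per the labels' protocols. The submitters' processing notes name bcl2fastq 2.19, Trimmomatic 0.38, HISAT2 2.1.0, featureCounts 1.6.3, DESeq2 1.24.0 and build mm10, with no role or order; how strand was handled in counting, and which annotation release was used, was not given in the sources used here. Raw counts for each gene, and TPM for the same genes, were deposited by the authors in 2 tables with a column for each library. Groups were taken from the sample titles.

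Raw counts were tested with edgeR 4.0.16 (R 4.3.3): TMM factors, filterByExpr, robust quasi-likelihood F tests with all 12 libraries in 1 fit, 7 contrasts, 2-sided p adjusted by Benjamini-Hochberg over 15862 genes, threshold 0.05. CPM are TMM-scaled, and intervals are 95%. Correlations used log2 CPM with a prior count of 2 and 1296 within-group arrangements. The fit was tested on simulated data. The labels state no separate cultures or litters; p-values measure the spread between these livers. Alternatives were RLE factors, no filter, DESeq2 1.42.0, only the compared groups, a replicate block and each library left out; list counts under them were added after seeing the data.

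The members and the 13 gene lists were chosen with earlier results of these data known. Named genes are the 9 members, Foxo3, list genes past the threshold (up to 6 a list, or the 3 smallest p), and the most alike genes by Pearson r. Wnt2, Wnt9b and Rspo3 were named for their role, and the seventh pericentral gene to complete its count, after their values were seen. Of 191 listed genes, 18 were not tested. Sequences are from RefSeq promoter windows of GRCm38.p6, which were matched by symbol for 5 of 9 members; Rhbg, Lgr5, Tbx3 and Znrf3 had no entry.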

Additional observations from a re-analysis of the deposited data

How the results depend on the processing

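Of 288 refits of a member's log2 fold change with other settings, among them fits of only the compared groups, 284 kept direction and side of the threshold. The exceptions were Lgr5 in the mean fasting comparison, which passed with no filter (0.47) and with DESeq2 (0.46), so that 1 member was called there instead of 0, and Rnf43 for fasting in knockout livers, at 0.01 instead of -0.01 with no filter and with the replicate block. The counts of all genes moved more. No filter gave 5 genes for knockout against control in fed livers, 13 in fasted livers, 4 for their mean and 5 for the interaction, against 0, 5, 2 and 1. Fitting only the compared groups gave 312 for fasting in control livers (main 657), and 1 gene each for knockout against control in fed and in fasted livers. Besides the pericentral and periportal calls named above, it ended the fasting calls of Sox9 in knockout livers (adjusted p = 0.0517, edgeR) and of Fzd7 (0.0588) and Tcf7l1 (0.104) in control livers. No filter ended the calls of Tcf7l1 in control livers (0.0668) and of Aldh1b1 in the mean (0.102). DESeq2 gave 787 and 1157 for fasting in knockout and control livers (main 393 and 657), and 32, 42, 47 and 61 for the 3 genotype comparisons and the interaction. The replicate block gave 232 for fasting in knockout livers and 3 for knockout against control in fasted livers, and left 0 members called. With it Lgr5 had an adjusted p of 0.0838 for mean fasting, and the listed genes named in the text lost their calls for Dvl2 and Sox9 in knockout livers, for Fzd7, Tcf7l1, Oat, Nr1i3, Asl, Fbp1 and Tat in control livers, and for Ctnnbip1, Cyp2e1 and Aldh1b1 in the mean (0.0509 to 0.0923). The labels give no pairing by replicate number. Deviations of same-numbered livers correlated by -0.284 to 0.184, a check that cannot decide whether some livers were paired. The cause of these shifts was not tested.

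Leaving out each library in turn gave 88 to 573 genes for fasting in knockout livers, 272 to 648 in control livers and 1025 to 1425 for their mean. It gave 1 to 6 genes for knockout against control in fasted livers, 0 to 1 in fed livers, 1 to 3 for the mean and 1 to 3 for the interaction, and 0 to 1 members for mean fasting. Directions turned in 47 of 756 such refits of members, with these ranges of log2 fold change. Fasting in control livers: Axin2 -0.19 to 0.11 and Rnf43 -0.34 to 0.02. Fasting in knockout livers: Rnf43 -0.08 to 0.08. Mean fasting: Axin2 -0.03 to 0.13, Glul -0.14 to 0.03, Rhbg -0.26 to 0.42 and Rnf43 -0.17 to 0.00. Knockout against control, fasted: Slc1a2 -0.02 to 0.30, Tbx3 -0.19 to 0.04 and Znrf3 -0.02 to 0.35. Knockout against control, fed: Axin2 -0.16 to 0.16, Lgr5 -0.06 to 0.39, Rnf43 -0.01 to 0.23 and Znrf3 -0.01 to 0.10. Mean of both feeding states: Glul -0.05 to 0.13, Rhbg -0.13 to 0.55 and Tbx3 0.00 to 0.19. Interaction: Lgr5 -0.07 to 0.37, Rnf43 -0.03 to 0.33, Slc1a2 -0.39 to 0.04 and Znrf3 -0.06 to 0.31. Rhbg had 8 to 75 counts per liver. Its counting error was 15% to 25% of the group mean, against a spread between replicates of 12.5% to 80.9%. The spread was below the counting error only in fed knockout livers (12.5% against 25%).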
